A study of Caenorhabditis elegans with 8 samples.

Results

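ATP-binding cassette (ABC) transporter genes were followed in intestines dissected from fasted and fed adults of the nematode Caenorhabditis elegans. They were chosen by symbol: every gene named pgp, haf, mrp, abt, pmp, wht or abcf with a number, plus ced-7. This gave 51 of the 20392 genes in the table, namely 14 pgp, 8 haf, 8 mrp, 8 wht, 5 pmp, 4 abt and 3 abcf genes and ced-7. The X chromosome carried 16 of them, and chromosomes I to V carried between 5 and 9 each. The rule reads names and no measured value, although the family was picked with earlier results of these data known.

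All animals were wild type of the N2 (Bristol) strain at day 1 of adulthood, raised from synchronized first-stage larvae on bacteria. In the fasted group, adults were washed and kept on a roller in M9 buffer for 12 h before the gut was dissected, with 4 libraries. In the fed group, adults were dissected without that fast, also with 4 libraries. Both groups carry a 12 h time label, and the general growth text, shared by all samples, names plates with auxin, whereas the design text names plates seeded with the OP50 strain of bacteria. Absence of food, hours in liquid and added hours of age come together and cannot be told apart. Each library pools the intestines of several animals, per the study's methods. The labels call the replicates of the growth protocol biological and independent, and no other batch is given.

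ABC transporters use ATP to move substrates across membranes. The animal's gut is its main site of uptake, storage and detoxification, and drug-exporting members of this family are well known there. P-glycoproteins (pgp) are full-length exporters of lipophilic compounds, HAF proteins are single-unit transporters that work as dimers, and the mrp genes encode relatives of the multidrug resistance-associated proteins, which often carry conjugates. The pmp genes encode single-unit transporters related to those that bring fatty acids into the peroxisome, though not every member need act there. The abt-type genes and ced-7 belong to the class of lipid transporters, and wht genes resemble the white gene of Drosophila. The abcf proteins have the ATP-binding domains but no membrane part, and their relatives in yeast and mammals act on ribosomes.

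Expression is stated in RPM, a gene's reads for each 1000000 counts in that library. Total counts ranged from 25310202 to 33846215 in fasted and from 20964161 to 26372847 in fed libraries, so 3 counts corresponded to 0.0886 to 0.143 RPM. Intestine markers were present throughout, with none of 10 at 0 in either group. Their summed level was 1207 to 1356 RPM in fasted and 1948 to 2334 RPM in fed libraries. Singly, 3 of the 10 were called higher and 5 lower in fasted libraries, beside 52.9% and 9.97% of all tested genes. Markers of other tissues varied among the fasted libraries. The 10 body wall muscle markers summed to 907, 43.6, 14.4 and 1294 RPM in fasted libraries 1 to 4, against 8.08 to 11.4 RPM in fed libraries, where 2 of them were at 0 throughout. The 6 pharynx markers summed to 195, 2.21, 0.833 and 370 RPM in fasted libraries 1 to 4 and to 0.161 to 0.531 RPM in fed ones, with 2 at 0 in all fed libraries. The 13 germline markers summed to 109, 395, 31.7 and 35.8 RPM in fasted libraries and to 1.59 to 7.0 RPM in fed ones, again with 2 at 0 in all fed libraries. The 8 hypodermis markers summed to 215, 72.7, 9.79 and 6.29 RPM in fasted libraries 1 to 4. In fed ones they summed to 5.15 to 38.8 RPM. For the 9 neuron markers these sums were 57.3, 13.4, 12.7 and 68.1 RPM, and 8.04 to 10.6 RPM in fed ones. The 3 coelomocyte markers summed to 4.70 to 8.45 RPM in fasted and 1.21 to 2.09 RPM in fed libraries. Sperm and excretory cell sums overlapped between the groups. Fasted libraries 1 and 4 stood highest for muscle and pharynx, library 2 for germline and library 1 for hypodermis. For muscle, pharynx, germline, neurons and coelomocytes, every fasted library exceeded every fed one. The part of these reads in the levels of ABC genes was not tested. Keeping only fasted libraries 2 and 3 leaves out the highest muscle and pharynx reads but keeps the germline reads of library 2. Both libraries still exceeded every fed one in the muscle, pharynx, germline, neuron and coelomocyte sums. With fasted libraries 2 and 3 alone against the fed ones, 12 ABC genes were called higher and 7 lower, and the 4 calls lost were those of wht-7, haf-2, pgp-2 and pgp-3. In bulk tissue, fewer cells of a type and less RNA per cell cannot be told apart.

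Of the 51 genes, 36 had enough counts to be tested. A gene was called at a false discovery rate (FDR) under 0.01 and a fold change over 1.5, with the total count as library size. Under these criteria, 13 of the 36 were higher and 10 were lower in fasted than in fed intestines, and 13 were not called. Among all 7379 tested genes, 52.9% were called higher and 9.97% lower, so that ABC genes were called higher less often (36.1%) and lower more often (27.8%) than the background, a description that carries no test of the list. The median log2 fold change, fasted over fed, was 0.52 over the 36 genes and 1.23 over all tested genes, and 26 of the 36 lay below the all-gene median.

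The scale mattered for this split. Of all tested genes, 79.6% had a positive log2 fold change on total counts. Fasted libraries held a count for 10955 to 13615 genes and fed ones for 8807 to 9124, and what lies behind this was not tested. Scaling by TMM, which centres the bulk of genes, moved the median of all genes by -1.07 on the log2 scale. TMM factors were 1.36 to 1.49 in fasted and 0.638 to 0.733 in fed libraries. Under TMM, 6 ABC genes were called higher and 17 lower, beside 19.6% of all genes higher and 21.5% lower. All 10 genes lower by total counts stayed lower under TMM, whereas of the 13 higher ones 6 stayed higher and 7 were no longer called. The 6 were abcf-2, abcf-3, pgp-8, pgp-11, wht-2 and ced-7. Of these, pgp-8 had enough counts to be tested only through its fasted libraries, where it is high. No gene was called in opposite directions on these scales.

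**Figure D1:**
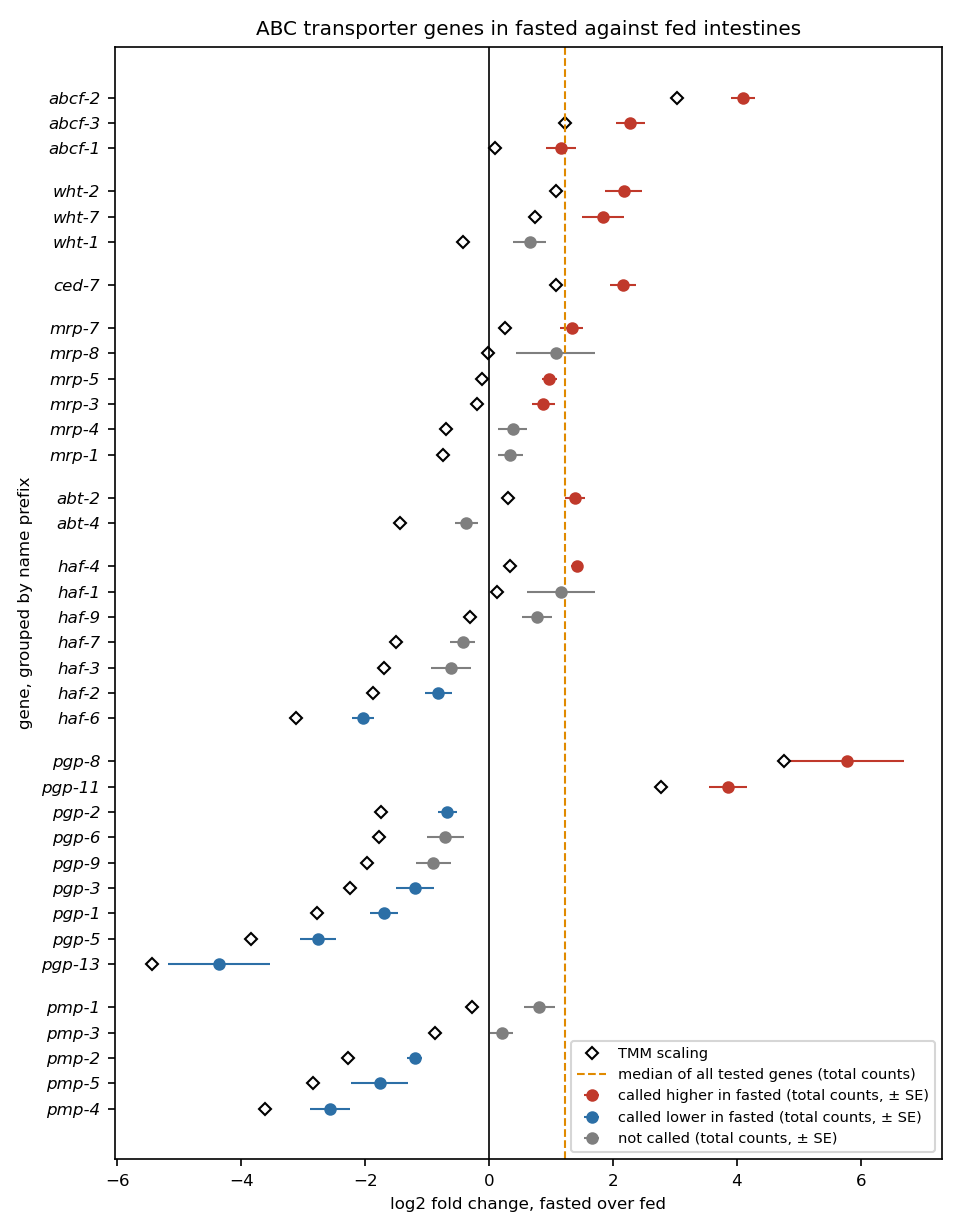
Log2 fold change (fasted over fed, x axis) of the 36 tested ABC genes, grouped by name prefix; filled points with SE bars come from total-count scaling and are coloured by call, open diamonds from TMM scaling. The pmp and most pgp and haf genes lie left of the dashed line at the median of all tested genes (1.23), and the 10 genes called lower lie left of 0 on both scales.

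Summed over each group of genes, the haf genes led in fasted intestines, and the pmp and haf genes had overlapping sums at the top in fed ones. The 51 genes together had 998 ± 44.0 RPM in fasted and 707 ± 30.5 RPM in fed libraries (SD, n = 4 each). The haf genes made up 451 ± 10.4 RPM in fasted and 242 ± 8.69 RPM in fed libraries. Of that, haf-4 alone made 89.2% in fasted and 62.2% in fed intestines. Without haf-4, the remaining 50 genes summed to 546 to 647 RPM in fasted and 520 to 588 RPM in fed libraries, ranges that overlapped. The largest relative difference was in the abcf genes, at 121 ± 8.32 RPM in fasted and 13.5 ± 3.25 RPM in fed libraries. In the opposite direction, the pmp genes summed to 107 ± 15.5 RPM in fasted and 246 ± 17.8 RPM in fed libraries. The pgp sum hardly separated the groups, with 81.9 ± 15.03 RPM in fasted and 87.4 ± 10.8 RPM in fed libraries, while its leading gene was pgp-11 in fasted intestines (53.2% of the sum) and pgp-5 in fed ones (23.8%).

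**Figure D2:**
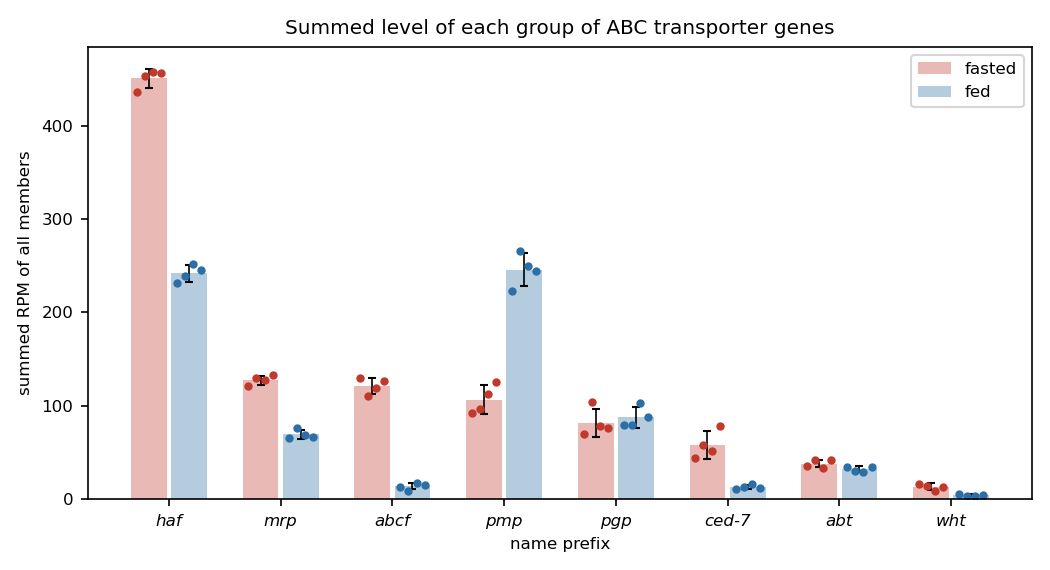
Summed RPM (y axis) of all members of each name prefix in fasted and fed libraries; bars are means, error bars SD (n = 4) and points single libraries. The haf, mrp, abcf, ced-7 and wht sums are higher in all 4 fasted than in all 4 fed libraries, the pmp sum is lower, and the pgp and abt sums overlap.

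Per kilobase of exon (RPKM, which allows genes to be compared), the order at the top differed between the groups. In fasted intestines haf-4 stood at 160 ± 1.94 RPKM, followed by abcf-2 at 38.1 ± 3.72, pmp-2 at 29.8 ± 1.67 and mrp-5 at 17.7 ± 0.451 RPKM (SD, n = 4). In fed intestines pmp-2 came first at 68.5 ± 5.82 RPKM and haf-4 next at 59.7 ± 1.67 RPKM, with touching ranges of 61.6 to 74.0 and 57.6 to 61.5 RPKM. Behind them in fed intestines were pmp-5 at 32.7 ± 2.98 and haf-6 and haf-2, which overlapped, at 16.5 ± 2.18 and 15.9 ± 3.45 RPKM. abcf-2 was 2nd of 51 in fasted and 17th in fed intestines.

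All 3 abcf genes were called higher by total counts, beside 52.9% of all genes. Under TMM 2 were higher, beside 19.6% of all genes. abcf-2, related to yeast Arb1, a ribosome biogenesis factor, had 102, 80.4, 93.0 and 95.2 RPM in fasted libraries, against 6.11, 3.82, 5.83 and 5.84 RPM in fed libraries. Every fasted library exceeded every fed one by far, and the log2 fold change was 4.10 (SE 0.189, FDR 5.27e-08), or 3.03 under TMM. abcf-3 is related to yeast Gcn20, a partner of the starvation kinase Gcn2. Its level was 19.8, 20.1, 16.9 and 21.4 RPM in fasted and 3.68, 2.62, 5.59 and 4.13 RPM in fed libraries (log2 fold change 2.28, SE 0.229, FDR 8.58e-06), and 1.22 under TMM. A stretch of up to 75 bases of its exons lies opposite 2 other genes in the annotation used. abcf-1 was higher by less (log2 1.16, SE 0.236, FDR 0.00112) and was not called under TMM, where it stood at 0.10.

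Translation-linked genes outside the name rule were also read. abce-1, whose product recycles ribosomes, had 4.55 to 5.49 RPM in fasted and 0.477 to 0.644 RPM in fed libraries, a log2 fold change of 3.09 (SE 0.231, FDR 1.17e-06; 2.02 under TMM). Of the Gcn pathway genes named around abcf-3, gcn-1 was higher (log2 2.23) and gcn-2 was higher by total counts (log2 1.23), whereas atf-4, a transcription factor of that pathway, was lower at 50.3 ± 6.81 RPM in fasted and 141 ± 7.84 RPM in fed libraries (log2 -1.48).

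The pgp genes split most widely. Of 9 tested, 2 were higher and 5 lower, beside 52.9% and 9.97% of all genes, with a median log2 fold change of -0.90. Under TMM the median was -1.96 and 7 were called lower, beside 21.5% of all genes. pgp-11, whose relatives have been tied to drug handling in parasitic nematodes, had 30.8, 67.8, 39.8 and 35.7 RPM in fasted libraries, against 2.20, 3.63, 2.33 and 3.79 RPM in fed libraries. The groups did not overlap although fasted library 2, which also held the most germline marker reads, was high. The lowest fasted value was in library 1, where germline markers summed to 109 RPM. The log2 fold change was 3.86 (SE 0.308, FDR 1.76e-06, and 2.78 under TMM), and without fasted library 2 it was 3.57. pgp-8 was near the floor in fed intestines, with counts of 0, 4, 0 and 1 in fed libraries beside 46, 22, 151 and 166 in fasted ones. In RPM the fasted libraries held 1.51, 0.869, 5.03 and 4.90. Its log2 fold change of 5.78 (SE 0.928, FDR 2.35e-04) therefore rests on 5 fed reads, and it became 7.48 without fed library 2. pgp-8 passed the count filter only through the fasted group, so its FDR is no separate support for the direction.

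Among lower pgp genes, pgp-5, known for a role in resistance to pathogenic bacteria and heavy metals, had 1.84, 4.31, 2.23 and 3.93 RPM in fasted and 16.9, 20.99, 25.8 and 19.7 RPM in fed libraries. This is a log2 fold change of -2.76 (SE 0.291, FDR 1.21e-05), -3.84 under TMM. pgp-13 had counts of 0, 8, 0 and 6 in fasted and 39, 39, 53 and 123 in fed libraries. Its low counts gave a log2 fold change of -4.36 (SE 0.825, FDR 7.04e-04), which moved to -5.25 without fasted library 2. pgp-13 passed the count filter only through the fed group, so its FDR is no separate support for the direction. pgp-1, an exporter of the gut membrane, was lower with 2.21 to 4.24 RPM in fasted and 9.21 to 12.5 RPM in fed libraries (log2 -1.70, SE 0.228). pgp-2, needed for the lysosome-related gut granules, was lower by log2 -0.67 (SE 0.152) and pgp-3 by -1.19 (SE 0.307). The pgp-2 call was lost when only fasted libraries 2 and 3 were kept (FDR 0.0202). pgp-3 lost its call in 6 of the 8 fits that left out 1 library, all but those without fed library 2 or 4, and with fasted libraries 2 and 3 alone (FDR 0.0397). pgp-9, with 6.65 to 14.2 RPM in fasted and 13.3 to 28.4 RPM in fed libraries, overlapped between the groups and was not called (log2 -0.90, FDR 0.0127), although it was called without fasted library 1 or without fed library 1. pgp-6 was not called either, at 1.74 to 3.48 RPM in fasted and 3.00 to 5.75 RPM in fed libraries (log2 -0.70), and both were lower under TMM (-1.96 and -1.77).

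**Figure D3:**
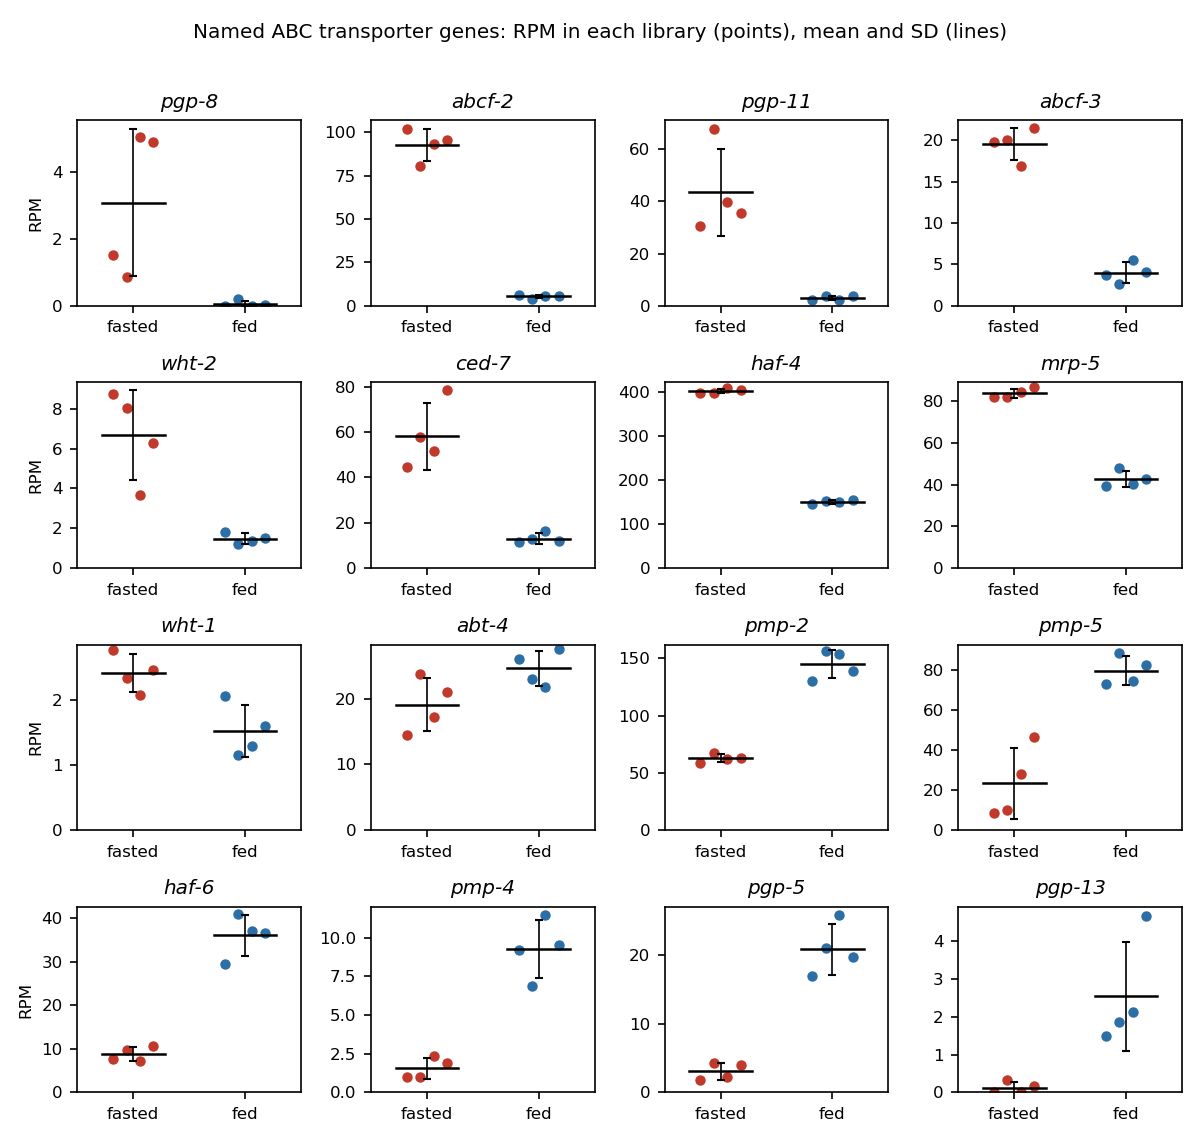
RPM (y axis, from 0) of 16 ABC genes in the 4 fasted (left) and 4 fed (right) libraries of each panel; points are libraries, horizontal lines means and error bars SD (n = 4). In the panels from pgp-8 to mrp-5 all fasted libraries lie above all fed ones, in those from pmp-2 to pgp-13 all lie below, and abt-4 overlaps.

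The haf genes fell on both sides of 0, with 1 higher, 2 lower and 4 not called of 7 tested, and a median of -0.43. Of all genes, 52.9% were called higher and 9.97% lower. haf-4, whose product sits on intestinal granules together with that of haf-9, was the most abundant haf gene, at 398, 398, 408 and 404 RPM in fasted and 145, 152, 149 and 155 RPM in fed libraries. The libraries of each group were tightly grouped and did not overlap with the other group (a 2.68-fold difference, SE 0.0947 on the log2 scale, FDR 5.27e-07), but under TMM the log2 value was 0.34 and the gene was not called. haf-9 had 7.98 to 11.6 RPM in fasted and 3.58 to 7.17 RPM in fed libraries and missed the threshold (log2 0.77, FDR 0.0123). The ratio of haf-4 to haf-9 within a library, on the log2 scale, was 5.41 ± 0.241 in fasted and 4.79 ± 0.450 in fed libraries, a difference of 0.62, with 1 fed library inside the fasted range of 5.11 to 5.64.

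haf-6 and haf-2, both linked to RNA interference, were lower. haf-6 had 7.72, 9.76, 7.19 and 10.6 RPM in fasted and 29.5, 40.9, 37.1 and 36.7 RPM in fed libraries, a log2 fold change of -2.03 (SE 0.181, FDR 3.79e-06; -3.12 under TMM). haf-2 had 15.3 to 29.0 RPM in fasted and 29.9 to 51.5 RPM in fed libraries, so that the groups nearly met. Its fold change of -0.82 on the log2 scale (SE 0.221, FDR 0.00619) lost its call in 6 of 8 fits without 1 library, all but those without fasted library 2 or fed library 2, and with fasted libraries 2 and 3 alone (FDR 0.0446). haf-7 had 4.43 to 6.68 RPM in fasted and 6.07 to 8.05 RPM in fed libraries, and haf-3 had 0.821 to 1.51 RPM in fasted and 1.37 to 1.93 RPM in fed libraries. Neither was called by total counts (log2 -0.43 and -0.61), and both were lower under TMM (-1.50 and -1.69). haf-1, a mitochondrial peptide exporter, had few reads (log2 1.16, SE 0.553) and was not called.

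The pmp genes held no gene called higher. Of the 5, 3 were lower, beside 9.97% of all genes, with a median of -1.20. pmp-2 was the most abundant of them, at 58.9, 67.5, 62.4 and 63.0 RPM in fasted and 130, 156, 153 and 139 RPM in fed libraries (log2 fold change -1.20, SE 0.117, FDR 6.85e-06; -2.28 under TMM). pmp-4, tied to fatty acid import, had 0.985, 0.988, 2.36 and 1.89 RPM in fasted and 9.18, 6.87, 11.5 and 9.56 RPM in fed libraries. The groups stood far apart, at a log2 fold change of -2.56 (SE 0.317, FDR 3.82e-05).

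pmp-5 varied widely among fasted libraries, with 8.80, 10.3, 28.0 and 46.6 RPM, against 73.0, 88.7, 74.7 and 82.4 RPM in fed libraries. The log2 fold change was -1.76 (SE 0.455, FDR 0.00480). Its call was lost without fasted library 3 or without any single fed library, with FDR between 0.0104 and 0.0167. pmp-1 was not called (log2 0.81, FDR 0.0130) but was called higher without fasted library 4 (log2 0.98, FDR 0.00331). pmp-3, often used as a reference gene in worm RNA measurements, had 4.37, 5.65, 4.70 and 5.58 RPM in fasted and 3.64, 4.72, 4.18 and 5.08 RPM in fed libraries. These values overlapped (log2 0.20, SE 0.191, FDR 0.344), and under TMM the gene was lower, at -0.88. Among 11 peroxin genes (prx), which build the peroxisome, 1 was lower (prx-11, log2 -1.33), near the 9.97% of all genes. None was called higher, beside 52.9% of all genes, and their median was -0.14. Under TMM, 6 of the 11 were lower, beside 21.5% of all genes.

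Of 6 mrp genes tested, 3 were called higher by total counts, beside 52.9% of all genes, and 5 lay below the all-gene median of 1.23, with a median of 0.92. Under TMM none was higher and mrp-1 was lower. mrp-5, a heme exporter of the gut, had 82.4, 82.2, 84.4 and 86.8 RPM in fasted and 39.6, 47.99, 40.6 and 43.0 RPM in fed libraries, which did not overlap (log2 fold change 0.97, SE 0.119, FDR 3.50e-05). Under TMM its value was -0.11. mrp-7 (log2 1.33) and mrp-3 (0.88) likewise were called on total counts only. Of the heme-responsive hrg genes, 2 of 4 tested were lower (hrg-7, log2 -1.90 and hrg-10, -2.36), beside 9.97% of all genes. None of the 4 was higher on either scale, and the median was -0.89. mrp-1, linked to heavy metal resistance, and mrp-4 gave 0.35 and 0.38, and mrp-8, near the limit of counting, 1.08.

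ced-7 and the abt genes form the lipid transporter class. ced-7, which acts in the uptake of dying cells, had 44.5, 57.7, 51.6 and 78.6 RPM in fasted and 11.3, 12.7, 16.3 and 11.8 RPM in fed libraries. All fasted libraries were higher than all fed ones, with the highest value in fasted library 4, which also held the most muscle marker reads. The lowest fasted value was in library 1, where muscle markers summed to 907 RPM. The log2 fold change was 2.16 (SE 0.207, FDR 6.05e-06, and 1.08 under TMM). The call held with fasted libraries 2 and 3 alone, of which library 2 was high in germline markers. Both exceeded every fed library in muscle marker sums. Of its engulfment partners, 4 of 6 tested were higher by total counts, beside 52.9% of all genes. Under TMM 2 of 6 were higher, beside 19.6% of all genes, which were ced-1 (log2 2.59 by total counts) and psr-1 (2.14). abt-2 was higher on total counts (log2 1.39, SE 0.164). By total counts abt-4 was not called (log2 -0.36, FDR 0.0868). Its values were 14.5, 23.7, 17.2 and 21.04 RPM in fasted and 26.1, 22.9, 21.8 and 27.6 RPM in fed libraries. Under TMM abt-4 was lower, at -1.44.

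The wht genes were the least expressed group, with 3 of 8 tested. wht-2 had 8.74, 8.06, 3.66 and 6.26 RPM in fasted and 1.82, 1.19, 1.37 and 1.52 RPM in fed libraries (log2 fold change 2.17, SE 0.295, FDR 7.42e-05; 1.09 under TMM). Although fasted library 3 was lowest, it was still above every fed library. wht-7 was higher at log2 1.84 (SE 0.336) and lost its call with fasted libraries 2 and 3 alone (FDR 0.0124). wht-1, required for RNA interference, had 2.76, 2.33, 2.06 and 2.45 RPM in fasted and 2.05, 1.14, 1.29 and 1.59 RPM in fed libraries, touching ranges, and was not called (log2 0.66, FDR 0.0453).

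Several of these genes lie next to each other, which allowed neighbours to be compared. In the annotation, exons of 17 of the 51 genes overlap those of another gene, 15 of them on the opposite strand, among them wht-1 (129 bases with attf-4), mrp-4 (80 bases with F21G4.1), ced-7 (71 bases with C48B4.13) and wht-2 (57 bases with catp-8), and reads there may be shared. Positions come from the Ensembl annotation of WBcel235, a later build than ce10 on which the reads were aligned. On the minus strand of the X chromosome, pgp-5 (10854216 to 10859297), pgp-8 (10859301 to 10864422), pgp-7 (10865347 to 10870237) and pgp-6 (10871201 to 10877425) follow each other, and pgp-5 and pgp-8 lie 3 bases apart. pgp-5 was lower and pgp-8 higher in fasted intestines. Ratios within a library do not depend on the scaling of libraries. They are given for 3 pairs chosen after their values had been seen, as a description with no test, and with 0.5 added to each count. The log2 ratio of pgp-8 to pgp-5 was -0.27 ± 1.47 in fasted and -8.79 ± 1.66 in fed libraries, where the fed value rests on the 5 pgp-8 reads and the added 0.5. The pair pmp-1 and pmp-2 lies on the minus strand of chromosome II with 285 bases between them (6880704 to 6883754 and 6884040 to 6887805). Their log2 ratio was -2.27 ± 0.544 in fasted and -4.24 ± 0.266 in fed libraries, a difference of 1.96.

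**Figure D4:**
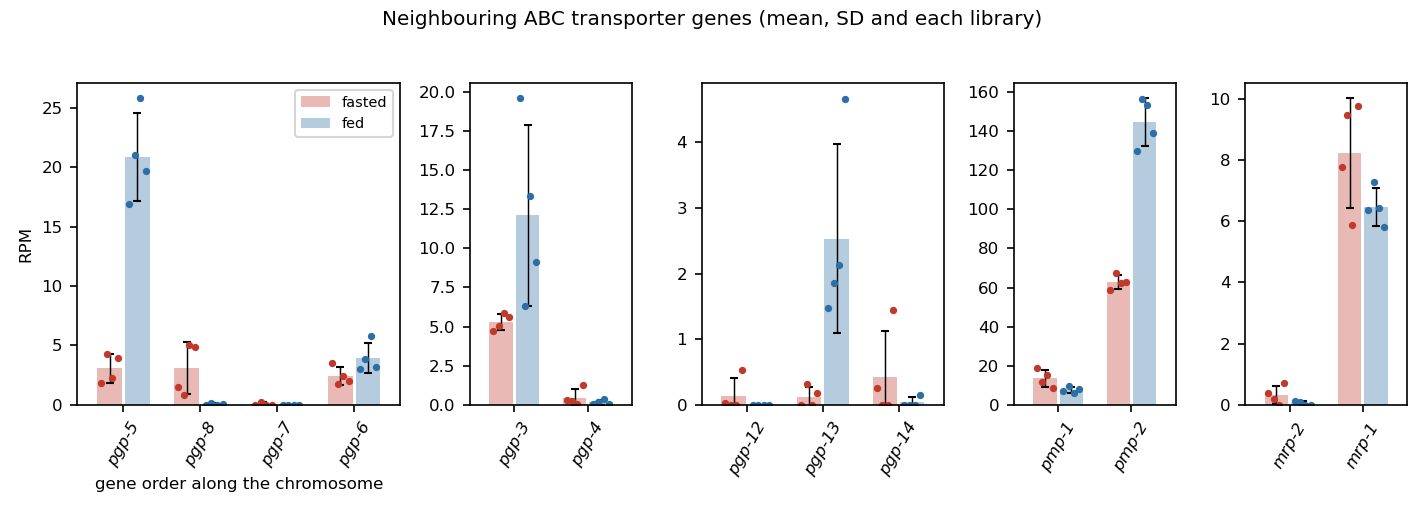
RPM (y axis) of neighbouring ABC genes in their order along the chromosome, in fasted and fed libraries; bars are means, error bars SD (n = 4), points single libraries. pgp-5 and pmp-2 are higher in fed libraries and pgp-8 in fasted ones, and pgp-7, pgp-4, pgp-12, pgp-14 and mrp-2 stay below 2 RPM.

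A total of 15 genes had too few counts to test: abt-1, abt-5, haf-8, mrp-2, mrp-6, pgp-4, pgp-7, pgp-10, pgp-12, pgp-14, wht-3, wht-4, wht-5, wht-6 and wht-8. haf-8 and wht-4 had no count in any library, which at these depths allows a level of up to 0.0886 to 0.143 RPM in a library. The largest counts of the others in any library were 12 for abt-1, 4 for abt-5, 24 for mrp-2, 2 for mrp-6, 42 for pgp-4, 7 for pgp-7, 15 for pgp-10, 18 for pgp-12, 49 for pgp-14, 7 for wht-3, 2 for wht-5, 5 for wht-6 and 4 for wht-8. pgp-14, a gene of the pharynx, had counts of 8, 0, 0 and 49 in fasted libraries 1 to 4, where the pharynx markers were high in libraries 1 and 4, and 0, 0, 0 and 4 in fed ones. pgp-12, known from the excretory cell, had 1, 0, 0 and 18 counts in the same fasted libraries and none in the fed ones. When low counts were not filtered, none of the 13 genes with a count was called.

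Genes that could act beside the transporters were read from lists by name, against an all-gene median of 1.23. Of all genes, 52.9% were called higher and 9.97% lower by total counts, and 19.6% and 21.5% under TMM. Of 9 tested regulators of the response to foreign compounds, 5 were higher and 1 lower by total counts, close to the background, and 2 were higher and 2 lower under TMM (median by total counts 0.97). The 2 higher on both scales were the nuclear receptor nhr-8 at log2 1.90 and the Mediator subunit mdt-15 at 1.98, and nhr-86 was lower at -0.80. Of 6 gut granule genes tested, 4 were higher by total counts, whereas under TMM none was higher and 2 were lower, and their median of 0.94 lay below that of all genes. Among the 6 phospholipid flippase genes tested, which turn lipids toward the inner side of a membrane, 5 were higher by total counts and 2 under TMM, namely tat-3 (3.65 by total counts) and tat-4 (1.93), and the median of 1.10 was below that of all genes. Genes for glutathione and phytochelatin supply gave 2 higher of 5 by total counts, a smaller share than the background, and 2 lower and none higher under TMM. hmt-1, which carries phytochelatins, was not called by total counts at -0.19 and was lower under TMM at -1.27. Of the other ABC genes outside the name rule, cft-1 and abtm-1 were not called (0.80 and 0.96) and abcx-1 had no count.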

How the data were processed

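The deposited values are counts. Per the study's methods, the authors trimmed reads with Trimmomatic, aligned them to ce10 with the spliced aligner of QuasR, kept unique reads and counted those in the orientation of WormBase exons. The cDNA kit is not described as strand-preserving, so that genes on opposite strands may share or lose reads, and close paralogues lose shared reads. The floor of 3 counts covers counting error only, whereas the SE also holds the spread between libraries. Symbols and positions came from Ensembl release 115 (WBcel235), found for 19182 identifiers and not for 1210.

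Genes were tested with edgeR 4.0.16 (glmQLFit, glmQLFTest) in R 4.3.3, the group as the only term and total counts as library size, after filterByExpr (minimum count 10, total 15). FDR is Benjamini-Hochberg over 7379 genes, and the SE is the log2 fold change over the root of F. On simulated counts for fasted against fed over these 7379 genes, 59% of 2-fold and 97% of 4-fold changes were called. The simulation gave every gene the same dispersion and changed 100 genes by each amount, unlike the real data. Alternatives were TMM, DESeq2 1.42.0, no filter, a mean of at least 10 counts, a replicate block, each library left out, and fasted libraries 2 and 3 alone. P-values weigh the difference between the groups against the spread between these libraries, an estimate that draws on all tested genes.

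Members and lists were chosen with earlier results of these data known. Genes given in full were the 5 largest increases and the 5 largest decreases among called members with a mean of at least 20 counts, the most abundant member of each prefix per kilobase in either group, and ced-7. Planned promoter and protein features were not computed here.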

Additional observations from a re-analysis of the deposited data

Results flagged for a closer look

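Among 88 groups of 4 libraries (44 quantities in both conditions), 3 held a library whose gap to its nearest neighbour was large relative to the range of the group, where chance gives about 4.4. abcf-2 in fed library 2 was 3.82 RPM, the other fed libraries lying at 5.83 to 6.11 RPM. abt-2 in fed library 1 was 8.61 RPM, against 6.44 to 6.80 RPM in the others. pgp-1 in fed library 4 was 12.5 RPM, against 9.21 to 9.41 RPM in the others. None of these 3 genes lost its call when the library was left out.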

How the results depend on the processing

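The scale of the libraries decided most. With TMM, DESeq2 and the replicate block with TMM, the genes called higher numbered 6, 6 and 6 and those called lower 17, 17 and 16, and the median log2 fold change of the tested genes was -0.55, -0.56 and -0.57. In the same order of settings, the sign turned for haf-9 (-0.31, -0.32, -0.28), mrp-1 (-0.74, -0.75, -0.75), mrp-3 (-0.20, -0.20, -0.22), mrp-4 (-0.69, -0.70, -0.74), mrp-5 (-0.11, -0.12, -0.10), mrp-8 (-0.0083, -0.027, -0.070), pmp-1 (-0.27, -0.28, -0.31), pmp-3 (-0.88, -0.89, -0.87) and wht-1 (-0.42, -0.43, -0.39). Without a filter the median was 0.81. Leaving out 1 library at a time gave 13 to 14 genes higher, 7 to 9 lower and a median of 0.47 to 0.60. With fasted libraries 2 and 3 alone, 12 were higher and 7 lower.

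Per the study's methods, part of the collected adults was taken as fed and the rest was fasted, so same-numbered libraries may be paired. Their deviations correlated at 0.0257, 0.0674, 0.0859 and 0.112 over 7994 genes, beside -0.166 to 0.140 for other pairs. These values cannot decide on pairing, which the main fit left out. The replicate block gave 13 higher and 8 lower, with haf-2 and pgp-3 no longer called. Over all 540 gene values, 457 kept their direction and side of the threshold. A 2-fold change was called in 59% of simulated cases at this depth. The simulation differs from the real data in spread and in the share of genes changed, so 59% is not the sensitivity here. Genes not called may still differ.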
